A study of Mus musculus with 53 samples.

Results

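The genes described here are 28 genes of cholesterol synthesis, of its control and of cholesterol transport, measured in whole tissue of 2 mouse brain regions. They were listed by name and role, with no measured value in the rule, although earlier results of these data were known when they were chosen. They were mapped by symbol to the Ensembl identifiers of the count tables, which hold 56350 identifiers for the central nucleus of the amygdala (CeA) and 54547 for the medial prefrontal cortex (mPFC). All 28 were found in both tables. They fall into 4 roles: 7 genes of the mevalonate steps, 11 of the squalene and sterol steps, 4 that control synthesis, and 6 that move or turn over cholesterol.

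Brain cholesterol is made in place, because the blood-brain barrier keeps lipoprotein cholesterol of the blood out. Cells build it from acetyl-CoA by way of mevalonate, farnesyl diphosphate, squalene and lanosterol. When sterols are low, the escort protein SCAP carries the transcription factor SREBP2 (gene Srebf2) to the Golgi, where it is cut and released to raise synthesis genes, while INSIG1 and INSIG2 hold the complex back when sterols are plentiful. When oxysterols are plentiful, LXR receptors raise the efflux pumps ABCA1 and ABCG1. Oligodendrocytes, which make myelin, and astrocytes, which supply neurons through ApoE particles, are the main producers, and neurons pass excess cholesterol out as 24-hydroxycholesterol through CYP46A1.

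All mice were C57BL6/J at postnatal day 119, per the labels, and no group carried a genetic change. They received control chow or chow with PLX5622, which the labels give as 1200 ppm (1200 mg/kg in the protocol), for 28 days before the ethanol phase. PLX5622 blocks CSF1R, a receptor that microglia need to survive. In the ethanol phase, chronic intermittent ethanol exposure was paired with drinking of 15% ethanol over 4 weeks, and brains were collected 24 h later. The labels divide the mice by dependence and do not say how the non-dependent ones were treated. Non-dependent mice gave 6 control and 4 PLX5622 libraries of CeA and 7 and 9 of mPFC. Dependent mice gave 5 and 4 of CeA and 9 and 9 of mPFC. The mice are numbered, and p-values measure the spread between these libraries. The question the design poses is how loss of microglia and ethanol dependence, alone and together, change transcripts in each region.

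Counts in genes ran from 1062443 to 1968971 per CeA library and from 1531574 to 2607438 per mPFC library. Levels below are CPM, counts scaled to a library of 1e+06 after normalization. Microglial markers were low in the libraries labelled PLX5622: the summed level of 20 of them was 406 to 650 CPM in CeA control libraries and 38.5 to 70.0 CPM in CeA PLX5622 libraries, and 433 to 515 against 34.6 to 123.7 CPM in mPFC, with Trem2 and Itgam listed at 0 in every group. Spike-in RNA was present in 12 libraries, 3 in each of the 4 dependent groups. Number 16 is on control chow by its CeA label and on PLX5622 by its mPFC label. Tissue holds many cell types, so fewer cells of a type and less RNA per cell cannot be told apart in any difference below.

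Of the 28 genes, 26 had enough counts to be tested in every comparison. The others were Fdps and Idi1, both of which share long identical stretches with pseudogenes. Fdps, which makes farnesyl diphosphate, was listed at 0 in every library. Idi1, which isomerizes isopentenyl diphosphate just before that step, had 20 counts over all CeA libraries and 87 over all mPFC libraries. Of all 50-base words in the last 1000 bases of Fdps transcripts, 40.6% also occur in genes elsewhere and 61.4% in a gene that overlaps Fdps. The closest copy, the processed pseudogene Gm3571 on chromosome 10, held 384 counts in CeA and 712 in mPFC. For Idi1, 31.4% of such words occur elsewhere, and its pseudogene Gm13502 on chromosome 2 held 5 and 8 counts. For Acat2, the cytosolic thiolase that joins acetyl-CoA units at the first step, 33.1% of such words occur in the coding gene Acat3, which held 120 and 189 counts beside 1205 and 3388 for Acat2. How reads that match more than 1 gene were counted is not stated in the labels. The counts list reads of low mapping quality (13.1% to 15.8% per library) and reads ambiguous between genes (2.2% to 2.4%) apart from any gene. How many of these came from these 3 genes is not known, so the levels of these 3 genes are uncertain. The following 30-base stretches lie inside runs of 188, 424 and 263 identical bases, respectively, all in coding exons, and show letters that a read cannot assign to 1 gene. They were read from annotated transcripts and placed on GRCm38.
Fdps, chr3:89100701-89100730, minus strand: tgctgactgagaaggagctgggacacccag
Idi1, chr13:8887540-8887569, plus strand: gttacagcagagatcagatgctaaaattac
Acat2, chr17:12943877-12943906, minus strand: attgggggtgggatgggagtcgcaatgtgt
Whether shared reads set the low counts of Fdps and Idi1 was not tested. Of the last 1000 bases of Fdft1 transcripts, 76.0% of the 50-base words lie in an overlapping gene, and for Npc1 44.2%. The share was 19.5% for Tm7sf2, 12.3% for Cyp51, 8.06% for Lss, 5.99% for Scap and 1.18% for Hmgcs1. The counts of these genes can also be incomplete.

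Many of these genes are known targets of SREBP2, which binds promoters beside the factor NFY, so RefSeq promoter windows of 300 bases (250 before and 50 after the start site, GRCm38.p6) were searched by exact letters. Windows were listed for 22 of the 28 genes. The sterol regulatory element TCACNCCAC, on either strand, was found in 1.24% of the 32851 windows in the table and, among the 22 genes, in Hmgcs1 alone. The NFY box CCAAT, on either strand, was found in 37.4% of all windows and in at least 1 window of 19 of the 22 genes, or 67.9% of their 28 windows. The windows below show the Hmgcs1 element and NFY boxes of 3 genes whose levels are described later, with the motif in capitals (ATTGG is CCAAT read on the other strand).
Hmgcs1, chr13:119690203-119690232, plus strand: acgtcaccgtcTCACCCCACttcccaggtc
Insig1, chr5:28071183-28071212, plus strand: ccgccctcctcccATTGGctccggcggcct
Hsd17b7, chr1:169969201-169969230, minus strand: gggccgagccttgATTGGtcgaggtgcgcg
Mvk, chr5:114444206-114444235, plus strand: gttaatgtttgacCCAATctgtaaaggagc
A match in these letters is a description and not a site of binding, and a window without a match says nothing of either factor.

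The mean of log2(CPM + 1) over the 28 genes gives 1 value per library. In mPFC it was 5.05 ± 0.05 (SD, n = 7) in control non-dependent, 5.13 ± 0.05 (n = 9) in PLX5622 non-dependent, 5.10 ± 0.04 (n = 9) in control dependent and 5.15 ± 0.05 (n = 9) in PLX5622 dependent libraries. In CeA it was 5.08 ± 0.10 (n = 6), 5.02 ± 0.06 (n = 4), 5.04 ± 0.08 (n = 5) and 5.08 ± 0.07 (n = 4) in the same order. Libraries of all 4 groups overlapped within each region, and the whole spread was 4.97 to 5.24 in mPFC and 4.91 to 5.19 in CeA. In mPFC of control dependent mice the 3 libraries with spike-in RNA held the 3 highest values, 5.13 to 5.17 against 5.04 to 5.11 in the other 6. In CeA of control dependent mice they held the 3 lowest, 4.95 to 5.05 against 5.11 to 5.12. In PLX5622 dependent mPFC the libraries with spike-in RNA ran from 5.13 to 5.18, against 5.08 to 5.24 without it. In PLX5622 dependent CeA they ran from 4.99 to 5.15, around the 5.06 of the 1 library without it. The part of spike-in RNA in these values was not tested.

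**Figure D1:**
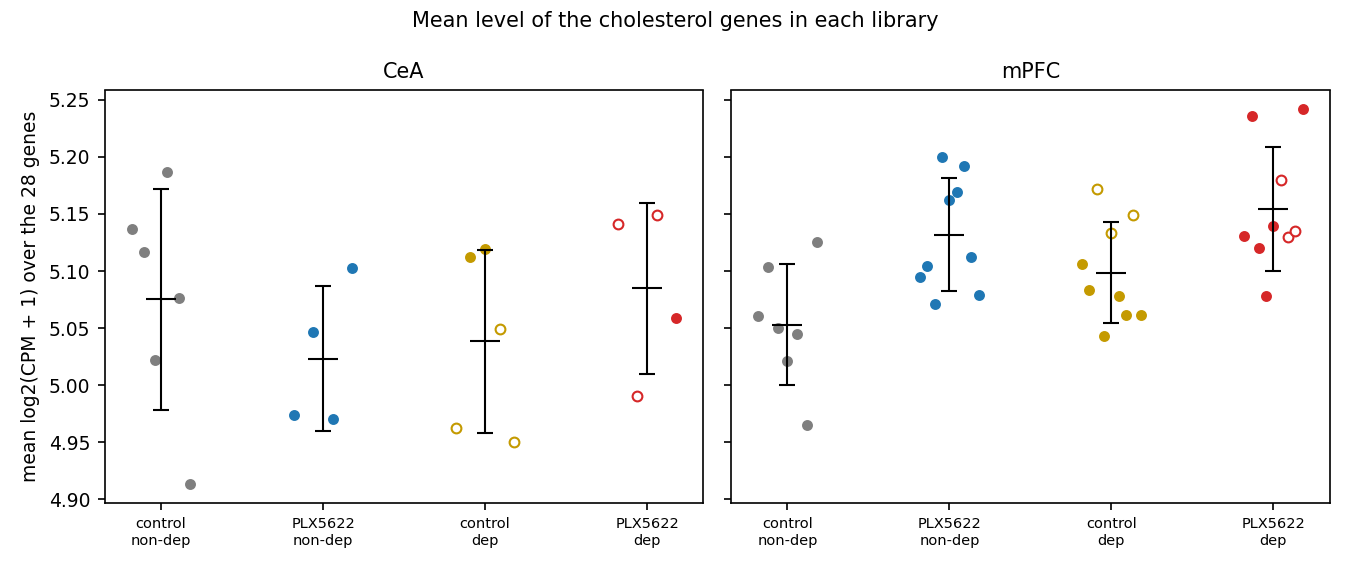
Mean log2(CPM + 1) over the 28 cholesterol genes for each library, by group, in CeA and mPFC; points are libraries (open where spike-in RNA is present), and bars give the mean and SD. The mPFC group means run from 5.05 to 5.15 and the CeA group means from 5.02 to 5.08, with overlapping libraries, and the axis starts above 0.

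The first comparison asked how PLX5622 chow changed these genes in mPFC. History here means the label, non-dependent or dependent. Averaged over both histories, 1 of the 26 tested genes was called by edgeR's quasi-likelihood test at an adjusted p under 0.05 (Benjamini-Hochberg over the 12331 genes tested), against 1.14% of all genes tested. It was Stard4, a carrier that moves cholesterol between membranes and is itself raised when sterols are low, and it rose. The differences of the 26 genes were small and mostly on the same side: 22 lay above 0, with a median log2 fold change of 0.08, against 52.7% of all genes and a median of 0.00. An unadjusted p under 0.05 was reached by 11 of the 26, against 7.74% of all genes. The genes were chosen with earlier results of these data known, so these counts are a description and the set was not tested.

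Stard4 ran from 37.3 through a median of 46.8 to 53.3 CPM in control non-dependent and from 44.0 through 55.4 to 64.8 CPM in PLX5622 non-dependent mPFC. In dependent mice it ran from 45.3 through 49.3 to 54.9 CPM on control chow and from 50.1 through 54.1 to 62.4 CPM on PLX5622. The groups overlapped, but 17 of the 18 PLX5622 libraries lay above the median of all control libraries. The log2 fold change was 0.20 ± 0.05 (SE), or 1.15-fold, with an adjusted p of 0.030 by edgeR's quasi-likelihood test. Within each history alone Stard4 was not called, at 0.25 ± 0.08 in non-dependent mice (adjusted p = 0.199) and 0.14 ± 0.07 in dependent mice (adjusted p = 0.771), and the test of their difference did not pass (interaction -0.11 ± 0.10, adjusted p = 1.00 in the same model). The call is close to the threshold. It was lost with DESeq2 (adjusted p = 0.0566) and in 12 of the 34 edgeR fits that left out 1 mPFC library: control non-dependent 17, 20 or 36, PLX5622 non-dependent 16, 23 or 47, control dependent 3, 9 or 26, and PLX5622 dependent 6, 29 or 30, with adjusted p up to 0.0969 and the log2 fold change between 0.17 and 0.21. The fit without mouse number 16 is the one without PLX5622 non-dependent library 16 (0.0502).

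The 5 tested mevalonate genes lay above 0 in mPFC. Acat2 ran from 37.2 through 45.9 to 51.5 CPM in control and from 45.5 through 48.2 to 60.9 CPM in PLX5622 non-dependent libraries, and from 35.6 through 42.1 to 58.4 against 43.8 through 53.2 to 59.6 CPM in dependent mice. All 18 PLX5622 libraries lay above the median of the control libraries, though the ranges overlapped. Its log2 fold change of 0.20 ± 0.06 did not pass the test (adjusted p = 0.129), and it passed with no filter on low counts (adjusted p = 0.0338) and without control dependent library 27. Mvd, which decarboxylates mevalonate diphosphate, was at 0.17 ± 0.10, and Mvk, the kinase that commits mevalonate, at 0.11 ± 0.11. Hmgcs1, which makes HMG-CoA, was at 0.07 ± 0.04, and Pmvk, the next kinase, at 0.05 ± 0.07.

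Of the 11 genes of the squalene and sterol steps, 10 lay above 0 and none was called. Tm7sf2, a sterol C14 reductase, had the largest value at 0.31 ± 0.11 (adjusted p = 0.269), at a low level: medians were 8.53 and 9.37 CPM in control and PLX5622 non-dependent libraries, and 8.37 and 10.9 CPM in dependent ones. Lss, which closes squalene epoxide into lanosterol, was at 0.18 ± 0.07, and Fdft1, which makes squalene, at 0.15 ± 0.06. Nsdhl, which works on the C4 methyl groups, was at 0.13 ± 0.05, Sc5d, a desaturase, at 0.09 ± 0.04, and Msmo1, a C4 methyl oxidase, at 0.09 ± 0.04. These 6 genes were those of the group with an unadjusted p under 0.05. Sqle, the squalene epoxidase, was at 0.04 ± 0.05 and Cyp51, the lanosterol demethylase, at -0.01 ± 0.05. Dhcr7, which makes cholesterol in the last step of the Kandutsch-Russell branch, was at 0.13 ± 0.09, Hsd17b7, a 3-keto sterol reductase, at 0.01 ± 0.08 and Ebp, the sterol isomerase, at 0.00 ± 0.10.

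The 4 control genes lay above 0 and did not pass: Srebf2 at 0.07 ± 0.03, Scap at 0.08 ± 0.05, Insig1 at 0.16 ± 0.09 and Insig2 at 0.09 ± 0.04. Of the 6 movement genes, 3 lay above 0. Of the LXR targets, Abcg1 was at 0.01 ± 0.05 and Abca1 at -0.09 ± 0.12. Npc2, the lysosomal protein that hands cholesterol to NPC1, lay below 0 at -0.13 ± 0.05 (adjusted p = 0.472). Npc1 was at -0.04 ± 0.05 and Cyp46a1, the neuronal 24-hydroxylase, at 0.04 ± 0.04.

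**Figure D2:**
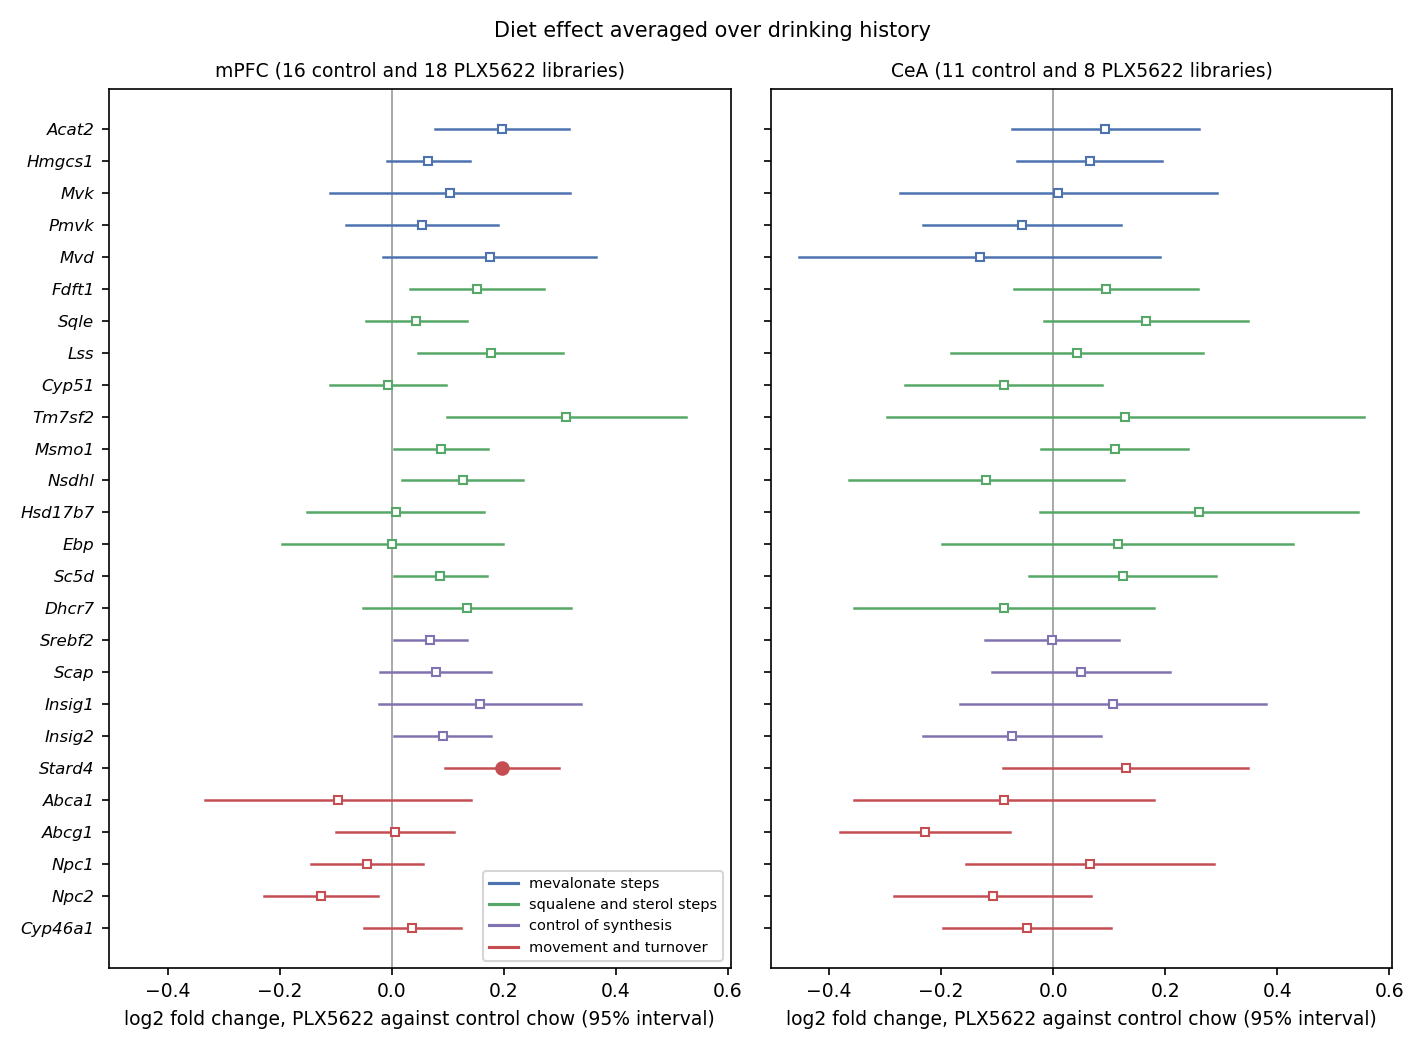
Log2 fold change of PLX5622 against control chow, averaged over non-dependent and dependent mice, for the 26 tested genes in mPFC (left) and CeA (right); lines are 95% intervals, colours mark the 4 roles, and a filled circle marks a called gene. Stard4 in mPFC, at 0.20, is the filled point, and 22 of the mPFC values lie above 0.

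**Figure D3:**
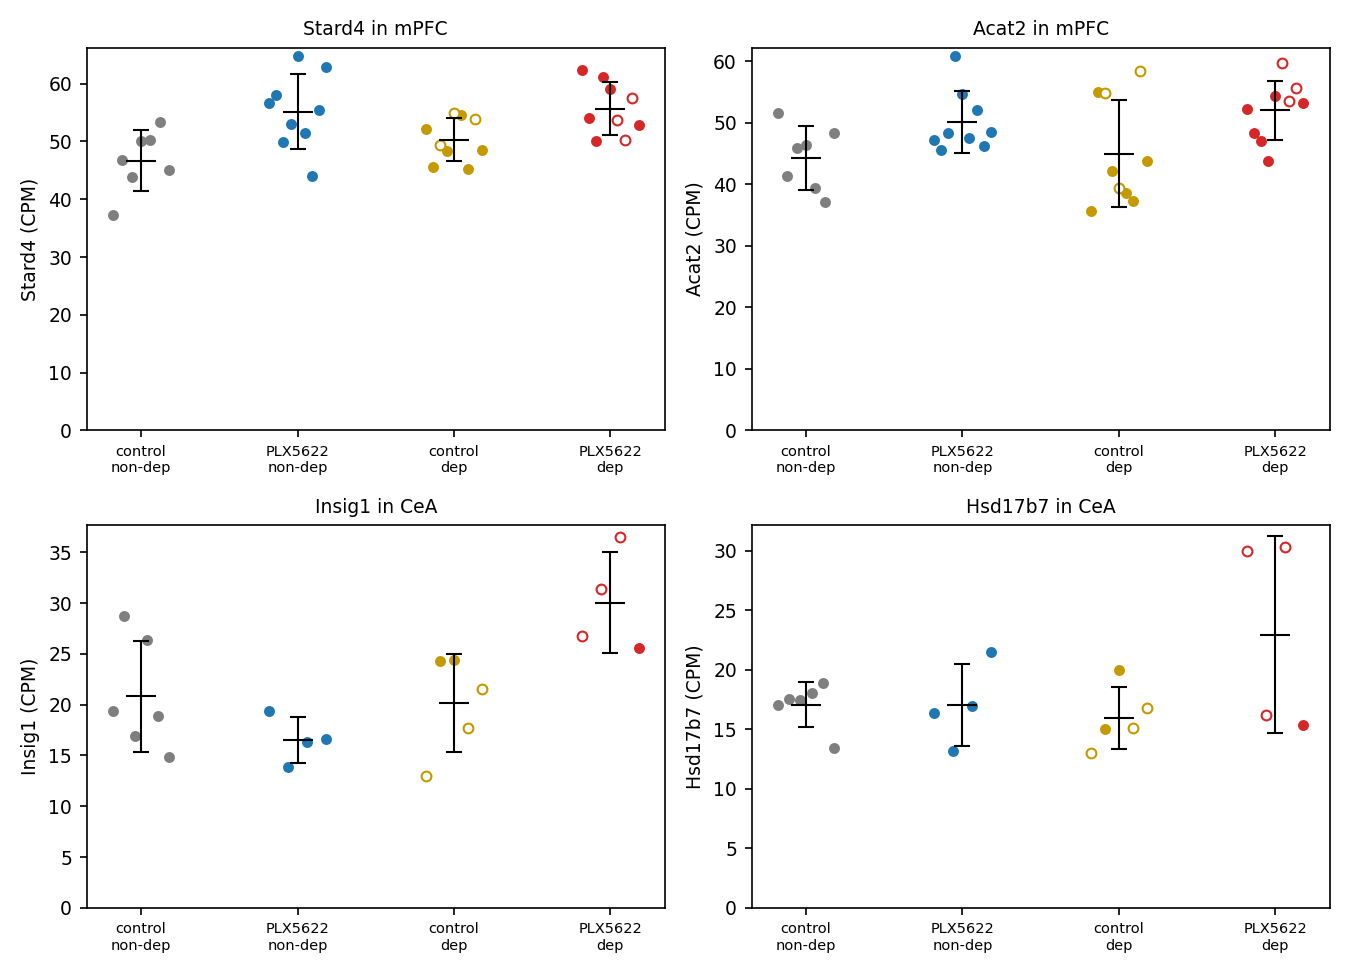
CPM of Stard4 and Acat2 in mPFC and of Insig1 and Hsd17b7 in CeA for each library by group, with mean and SD; open points hold spike-in RNA. Stard4 means lie at 46.7 and 50.3 CPM on control and at 55.1 and 55.7 CPM on PLX5622 chow, and Insig1 is highest in the PLX5622 dependent CeA group.

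Within each history in mPFC, edgeR called 0 of the 26 genes, and DESeq2 called 0 as well. In non-dependent mice 0.624% of all genes were called, 6300 of the 12331 lay above 0 and 665 had an unadjusted p under 0.05. Of the 26 members, 20 lay above 0 with a median of 0.10, and 5 had such a p. Beside Stard4, the smallest p-values were those of Sc5d at 0.15 ± 0.06 and Mvd at 0.32 ± 0.14. In dependent mice 0.908% of all genes were called, 6474 of the 12331 lay above 0 and 777 had an unadjusted p under 0.05. Of the 26 members, 21 lay above 0 with a median of 0.06, and 6 had such a p. There Npc2 had the smallest p at -0.19 ± 0.07 (adjusted p = 0.406): it ran from 43.3 through 50.8 to 57.2 CPM in control and from 37.1 through 44.5 to 49.9 CPM in PLX5622 libraries, which overlapped. Acat2 was at 0.21 ± 0.08 and Tm7sf2 at 0.34 ± 0.15.

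The genes Hmgcs1, Sqle, Insig1 and Idi1, which rise in cells when sterols are low, were followed library by library in the same mPFC groups. Hmgcs1 ran from 150 through 164.3 to 177.2 CPM in control and 151.2 through 176.8 to 181.0 CPM in PLX5622 non-dependent libraries, and from 141.2 through 165.8 to 186.8 against 144.2 through 176.1 to 195.7 CPM in dependent ones. Sqle ran from 70.2 through 79.2 to 83.6 against 67.9 through 81.8 to 87.9 CPM, and from 72.3 through 79.0 to 97 against 72.2 through 82.7 to 101.3 CPM. Insig1 ran from 10.8 through 19.4 to 27.0 against 15.4 through 21.7 to 34.2 CPM, and from 20.6 through 22.2 to 26.9 against 18.4 through 24.4 to 31.1 CPM. The groups overlapped for each of these genes. Idi1 stayed between 0 and 2.74 CPM in all 4 groups. Abca1 ran from 21.6 through 24.3 to 31.9 against 15.2 through 24.0 to 34.0 CPM in non-dependent mice and from 17.5 through 25.6 to 45.1 against 17.0 through 25.6 to 39.5 CPM in dependent mice. Abcg1 ran from 58.4 through 72.3 to 80.1 against 51.8 through 71.2 to 80.5 CPM, and from 55.9 through 67.2 to 84.7 against 61.9 through 71.1 to 79.3 CPM. The efflux genes overlapped between diets as well.

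Markers of other cell types were read beside these values. In the averaged mPFC comparison 12 of 16 astrocyte markers lay above 0 with a median of 0.06, and 1 was called, while 1 of 18 oligodendrocyte markers lay above 0 with a median of -0.07. The summed level of the astrocyte list ran from 3738 to 4127 CPM in control and from 3708 to 4454 CPM in PLX5622 libraries, and none of its genes was at 0. The summed oligodendrocyte list ran from 1959 to 2814 CPM in control and from 1582 to 2632 CPM in PLX5622 libraries. The part of astrocyte and oligodendrocyte content in the values of the cholesterol genes was not tested.

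In CeA, edgeR and DESeq2 each called 0 of the 26 genes in all 3 diet comparisons. All genes tested were called at 0.938% in non-dependent mice, at 0.401% in dependent mice and at 0.896% averaged over history, out of 11721. In non-dependent mice 14 of the 26 lay above 0 with a median of 0.01, and 1 had an unadjusted p under 0.05. In dependent mice 19 lay above 0 with a median of 0.08, and 3 had an unadjusted p under 0.05. Averaged, 15 lay above 0 with a median of 0.05, and 1 had an unadjusted p under 0.05. Of all 11721 genes, 5705, 5894 and 5753 lay above 0 in the same order, and 1063, 638 and 1092 had such a p.

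In each single diet comparison in CeA the smallest p belonged to an efflux pump, Abca1 in non-dependent mice and Abcg1 in dependent mice and averaged over history. Abcg1, which passes cholesterol to lipoproteins, had CPM values of 76.8, 60.0, 64.5 and 73.5 in the 4 PLX5622 non-dependent libraries, against 67.0 through 72.7 to 88.4 in the 6 controls. In dependent mice it had 55.4, 64.8, 64.1 and 77.4 CPM with PLX5622, against 70.6, 80.0, 85.8, 89.0 and 80.9 CPM in controls. Only 1 PLX5622 dependent library reached the range of its controls, and the averaged log2 fold change was -0.23 ± 0.08 (adjusted p = 0.225, not called). Without the libraries holding spike-in RNA it was -0.12. Abca1, which loads cholesterol on ApoE and ApoA1, had 22.4, 34.3, 25.8 and 17.3 CPM with PLX5622 in non-dependent mice, against 24.1 through 34.1 to 43.9 CPM in controls. In dependent mice the order of the groups turned, with 26.1, 29.4, 36.5 and 36.5 CPM on PLX5622 and 19.5, 20.7, 22.2, 29.5 and 36.8 CPM on control chow. The effects were -0.44 ± 0.19 and 0.27 ± 0.20, and their difference of 0.71 ± 0.27 did not pass (adjusted p = 0.993).

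The genes raised when sterols are low were followed in CeA too, first in non-dependent mice. Hmgcs1 had 144.6, 139.1, 157.5 and 167.2 CPM with PLX5622, against 123.4 through 140.4 to 156.7 CPM in controls, at 0.10 ± 0.09. Sqle had 65.6, 69.9, 58.4 and 67.3 CPM, against 39.4 through 58.9 to 74.5 CPM. Stard4 had 26.1, 35.6, 36.0 and 40.2 CPM, against 25.3 through 28.1 to 39.6 CPM, at 0.20 ± 0.15. Each of these ranges overlapped. In dependent mice Hmgcs1 had 147.8, 141.8, 158.5 and 145.4 CPM with PLX5622, against 159.1, 141.5, 163.4, 152.5 and 111.8 CPM. Sqle had 63.0, 54.7, 68.6 and 49.7 CPM, against 56.8, 56.5, 51.0, 47.1 and 45.7 CPM, at 0.20 ± 0.14. Stard4 had 34.4, 22.3, 32.9 and 39.5 CPM, against 27.6, 27.9, 32.5, 35.4 and 32.6 CPM. Idi1 stayed between 0 and 2.33 CPM. Acat2, at 0.22 ± 0.12, and Insig2, an endoplasmic reticulum anchor of SCAP, at -0.20 ± 0.11, followed Abca1 in the order of p in non-dependent mice, and neither was called.

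Insig1, which retains SCAP and is itself an SREBP2 target, gave the 2 largest values of any member within a region, both in CeA and both resting on the PLX5622 dependent group. Its CPM was 26.7, 31.4, 36.5 and 25.6 in that group, 19.4, 13.8, 16.3 and 16.6 in PLX5622 non-dependent libraries, and 13.0, 24.3, 24.4, 17.7 and 21.5 in control dependent libraries. Control non-dependent libraries ran from 14.9 through 19.1 to 28.7 CPM. The PLX5622 dependent libraries lay above every library of both groups they are compared with. Dependence on PLX5622 chow gave 0.84 ± 0.21 (1.79-fold, unadjusted p = 0.000258, adjusted p = 0.379) and PLX5622 in dependent mice 0.54 ± 0.19 (adjusted p = 0.617), with an interaction of 0.86 ± 0.28 (adjusted p = 0.973), none of which was called by edgeR. The 2 effects share the PLX5622 dependent libraries. In mPFC the same dependence comparison was 0.10 ± 0.12.

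Hsd17b7 showed 2 levels within that CeA group, 29.9 and 30.3 CPM in libraries 6 and 8 and 16.2 and 15.3 CPM in libraries 7 and 29. The other CeA groups lay between 13.0 and 21.5 CPM. Its values of 0.53 ± 0.20 for PLX5622 in dependent mice and 0.45 ± 0.21 for dependence on PLX5622 chow were not called (adjusted p = 0.701 and 0.813). Libraries 6, 7 and 8 hold spike-in RNA, and without all such libraries, which leaves 1 library in this group, the values were -0.19 and -0.15.

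Striatal neuron, oligodendrocyte, excitatory neuron and astrocyte markers were read beside the CeA diet values. In the averaged diet comparison 5753 of all 11721 genes lay above 0. Of 11 tested striatal neuron markers 0 did, with a median of -0.63, and of 18 oligodendrocyte markers 1 did, with a median of -0.35, though none was called. Their summed levels ran from 1152 to 4385 CPM (striatal) and 2992 to 5301 CPM (oligodendrocyte) in control libraries and from 1017 to 2417 and 2779 to 4725 CPM in PLX5622 libraries, with no marker of either list at 0. The mean summed excitatory neuron level was 1994 CPM on control and 2250 CPM on PLX5622 chow in non-dependent mice, and 1973 and 2214 CPM in dependent mice. For the astrocyte list it was 4647 and 4442 CPM, and 4498 and 4843 CPM, in the same order. The part of these cell types in the values of the CeA cholesterol genes was not tested.

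Dependence was compared within each diet. In CeA, 0 of the 26 genes were called by edgeR or DESeq2 on control chow (0.00853% of all genes called, 3 members with an unadjusted p under 0.05), on PLX5622 chow (0.0171%, 2 members) or averaged over diet (0.0256%, 3 members). Of all 11721 genes, 716, 697 and 845 had such a p in the same order. On control chow the 4 control genes lay below 0, with Scap at -0.23 ± 0.11, and Acat2 lay at 0.25 ± 0.11 and Abca1 at -0.37 ± 0.17. On PLX5622 chow Dhcr7 stood at 0.39 ± 0.21 after Insig1 and Hsd17b7. Averaged over diet, Insig1 was at 0.41 ± 0.14 (adjusted p = 0.394), Scap at -0.19 ± 0.08 and Npc2 at -0.20 ± 0.09.

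In mPFC, 0 were called by either tool on control chow (0.00811% of all genes, 2 members with an unadjusted p under 0.05), on PLX5622 chow (0.0%, 1 member) or averaged over diet (0.219%, 4 members). Of all 12331 genes, 726, 728 and 1140 had such a p in the same order. On control and PLX5622 chow 6151 and 6242 of all genes lay above 0. On control chow 19 of the 26 lay above 0 with a median of 0.04, led by Npc2 at 0.17 ± 0.07, Msmo1 at 0.13 ± 0.06 and Sc5d at 0.12 ± 0.06. On PLX5622 chow 13 lay above 0, and Cyp51 had the smallest p at 0.22 ± 0.07 (adjusted p = 0.634), with 47.4 through 62.2 to 70.0 CPM in non-dependent and 57.7 through 68.2 to 81.3 CPM in dependent libraries, which overlapped. Sqle at 0.11 ± 0.06 and Hsd17b7 at -0.18 ± 0.11 came next. Averaged over diet, Cyp51 was at 0.15 ± 0.05 (adjusted p = 0.332), Msmo1 at 0.10 ± 0.04 and Sqle at 0.10 ± 0.05. Spike-in RNA was present in dependent groups only. Control dependent libraries 4, 10 and 27, which hold it, had Cyp51 at 68.5, 77.1 and 70.9 CPM, against 59.7 to 66.1 CPM in the rest of that group. In the PLX5622 dependent group the values were 68.2 to 81.3 CPM with it and 57.7 to 80.4 CPM without. Control non-dependent libraries, which lack spike-in RNA, ran from 53.9 to 72.4 CPM. Whether spike-in RNA itself has a part in the Cyp51 values was not tested. The difference between the diet effects of the 2 histories was called for 0 of the 26 genes in each region by both tools, with 2 members in CeA and 0 in mPFC at an unadjusted p under 0.05, and for 0.0% of all genes. Such a p was reached by 535 of all 11721 genes in CeA and 354 of all 12331 in mPFC. Among members in mPFC the smallest p-values of this difference were those of Pmvk at -0.21 ± 0.14, Sc5d at -0.13 ± 0.08 and Mvd at -0.28 ± 0.19.

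**Figure D4:**
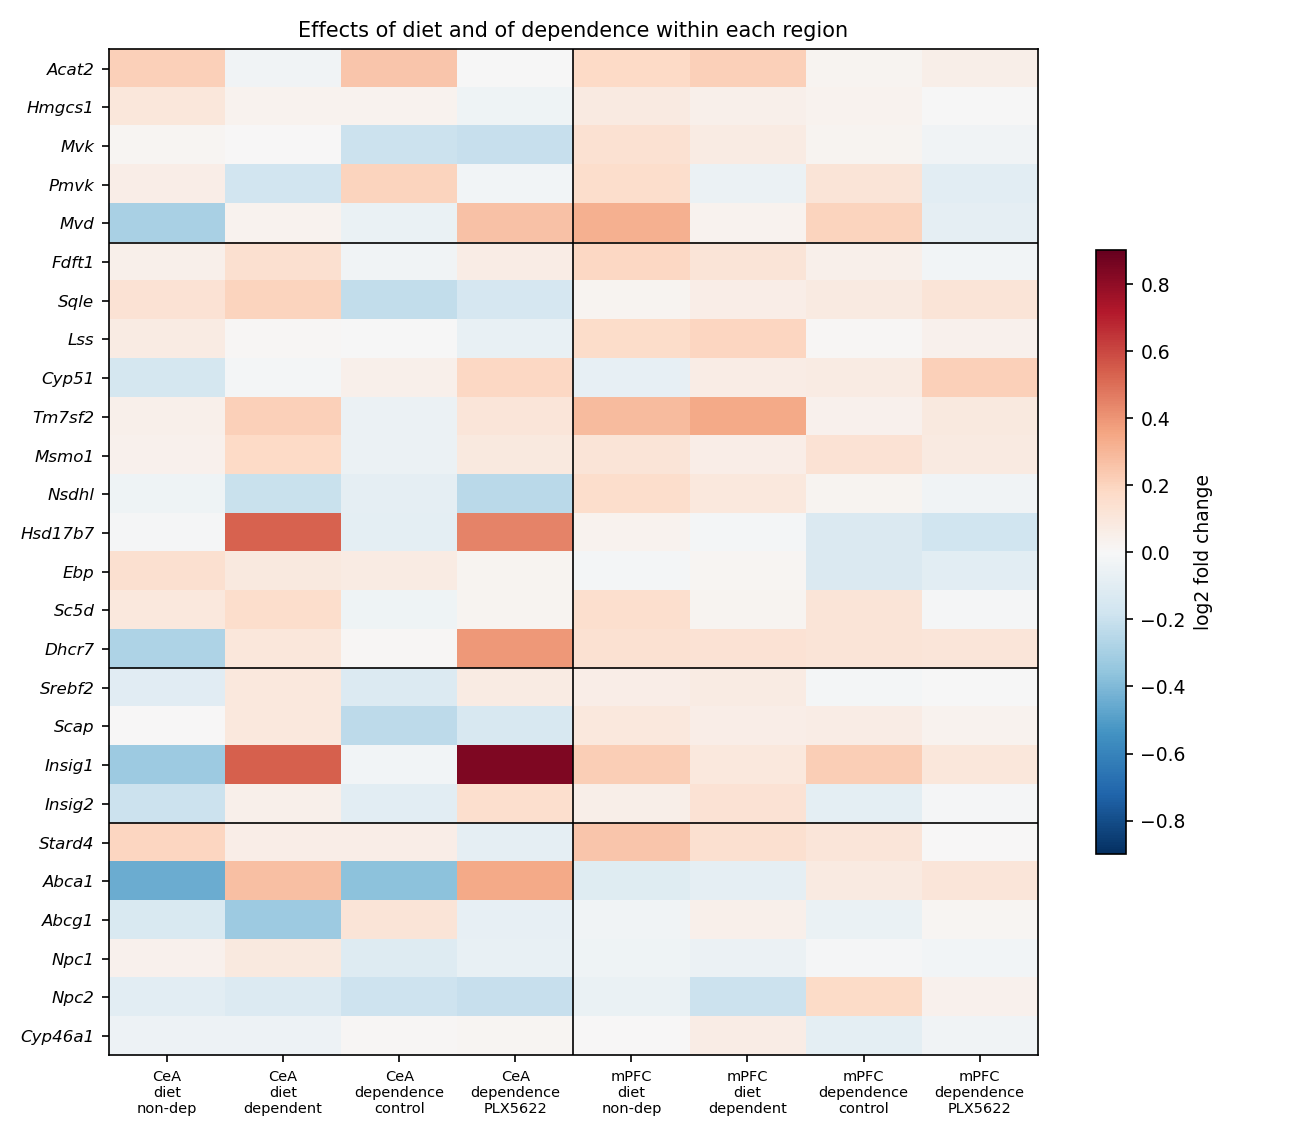
Log2 fold changes of the 26 tested genes for the 4 diet and dependence comparisons in each region; rows are genes in the order of the pathway with lines between the 4 roles, and red is higher in PLX5622 or in dependent mice. The strongest cell is Insig1 for dependence on PLX5622 chow in CeA, at 0.84, and Abca1 for diet in non-dependent CeA, at -0.44, is the strongest blue cell.

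Other genes of the pathway were counted by role, from 61 mapped genes. In the averaged diet comparison in mPFC 0 of 56 tested were called by edgeR, 8 had an unadjusted p under 0.05, and 34 lay above 0 with a median of 0.03. By role, 7 of 11 other synthesis genes, 6 of 11 uptake genes, 4 of 8 genes of LXR receptors and ABC transporters, 3 of 9 ester and transfer genes, 6 of 7 genes of SREBP processing and degradation and 8 of 10 fatty acid genes lay above 0. In the same comparison in CeA 25 of 55 tested lay above 0, with a median of -0.01, against 5753 of all 11721 genes.

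Pairs of members were also followed within groups, library by library, for 12 relations with the group means removed, and none passed after adjustment. The closest was Hmgcs1 with Idi1 in CeA (n = 19), with Pearson's r of 0.665 (permutation p = 0.0096, adjusted p = 0.0897) and Spearman's rho of 0.654 (permutation p = 0.00491, adjusted p = 0.0589). Without the 2 libraries farthest from the median r was 0.559, but Idi1 rests on 20 counts there. In mPFC (n = 34) the same r was -0.04 (permutation p = 0.846). Hmgcs1 with Sqle (r = 0.514) and with Abca1 (r = -0.589) had the same adjusted permutation p of 0.0897 in CeA. Without the 2 farthest libraries these r were 0.289 and -0.441. For rho the adjusted permutation p was 0.231 and 0.226. The mPFC r of these pairs was 0.291 and -0.204. Hmgcs1 with Srebf2 in CeA had r of 0.425 (adjusted permutation p = 0.153) and rho of 0.588 (adjusted permutation p = 0.0746), and in mPFC r of 0.194. Without the spike-in libraries the CeA r of Hmgcs1 was 0.507 with Idi1, 0.497 with Sqle, 0.544 with Insig1, -0.532 with Abca1 and 0.779 with Srebf2. For Abca1 with Abcg1 it was -0.696, against -0.128 with all libraries.

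The last comparison set the CeA libraries against the mPFC libraries. Region goes with sequencer, dissection and annotation release, so these are differences between library sets, and their causes cannot be told apart. Averaged over the 4 groups, 18 of the 26 genes were called by edgeR's quasi-likelihood test, against 68.3% of all 13035 genes tested. Of these 6 were higher in CeA and 12 lower, against 33.5% and 34.9% of all genes. In single groups 13 were called in control non-dependent mice (46.4% of all genes), 11 in PLX5622 non-dependent (43.6%), 13 in control dependent (46.6%) and 12 in PLX5622 dependent mice (40.2%). The number of called members was therefore near the background, and what follows describes which genes lay on which side.

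The mevalonate kinases were higher in CeA. Mvk ran from 11.8 through 17.9 to 24.8 CPM in CeA and from 4.85 through 11.0 to 16.3 CPM in mPFC, with a log2 fold change of 0.68 ± 0.09 (adjusted p = 7.5e-10 by edgeR). Pmvk ran from 39.4 through 49.9 to 65.0 against 24.0 through 34.6 to 45.3 CPM, at 0.55 ± 0.06. Every CeA library lay above the mPFC median for both genes. Hmgcs1, earlier in the path, was lower in CeA at -0.20 ± 0.04, with 111.8 through 145.4 to 167.2 against 141.2 through 166.6 to 195.7 CPM. Acat2 (medians of 44.4 and 47.9 CPM) and Mvd (15.5 and 15.4 CPM) were not called. Idi1 had medians of 0.744 and 1.2 CPM.

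Of the 11 genes of the squalene and sterol steps, 7 were lower in CeA, 1 was higher and 3 were not called. Hsd17b7 ran from 13.0 through 17.0 to 30.3 CPM in CeA and from 19.4 through 29.4 to 40.5 CPM in mPFC, at -0.69 ± 0.08. In the PLX5622 dependent group alone, which holds the high libraries 6 and 8, it was at -0.25 ± 0.17 and not called. Sqle ran from 39.4 through 58.4 to 74.5 against 67.9 through 81.7 to 101.3 CPM, at -0.47 ± 0.05, and Sc5d from 55.7 through 67.5 to 88.3 against 75.1 through 94.6 to 110 CPM, at -0.47 ± 0.04. For Sqle and Sc5d every CeA library lay below the mPFC median. Tm7sf2 was at -0.38 ± 0.11 (medians of 6.38 and 9.16 CPM), Nsdhl at -0.31 ± 0.06 (26.6 and 33.8), Lss at -0.18 ± 0.06 (27.1 and 31.8) and Cyp51 at -0.15 ± 0.05 (59.7 and 64.8). Dhcr7 went the other way, with 12.9 through 24.9 to 32.4 against 10.2 through 16.6 to 24.0 CPM, at 0.55 ± 0.08. Fdft1 (54.0 and 50.6 CPM), Msmo1 (102.1 and 102.9) and Ebp (15.2 and 16.3), were not called.

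Among the control genes Scap was higher in CeA at 0.34 ± 0.05, with 65.7 through 81.8 to 111.4 against 51.7 through 64.0 to 80.0 CPM. Insig2 was lower at -0.30 ± 0.04, with 46.1 through 59.4 to 71.4 against 62.7 through 73.2 to 91.9 CPM. Srebf2 was lower by a small amount, at -0.07 ± 0.03 (medians of 144.3 and 154.4 CPM, adjusted p = 0.0396 by edgeR), and Insig1 was not called (19.4 and 21.9 CPM). In the movement group Npc2 was higher at 0.58 ± 0.05, with 52.2 through 68.0 to 94.9 against 37.1 through 44.6 to 57.2 CPM, while its partner Npc1, the lysosomal membrane protein that takes over the sterol, was lower at -0.27 ± 0.06 (38.2 and 48.1 CPM). Stard4 was lower at -0.68 ± 0.06, with 22.3 through 32.6 to 40.2 against 37.3 through 52.5 to 64.8 CPM, and no CeA library reached the mPFC median. Cyp46a1 was higher at 0.26 ± 0.04 (117.5 and 100.3 CPM). Abca1 (29.5 and 24.9 CPM) and Abcg1 (73.3 and 71.1 CPM) were not called. The ranges of all 26 genes overlapped between regions. With mouse number as a block over the 15 pairs, 17 genes were called, of which 16 were among the 18, against 63.2% of all genes in that fit. Lss (-0.04 ± 0.08, adjusted p = 0.653) and Srebf2 (-0.08 ± 0.04, 0.0954) were not called, and Abca1 was (0.20 ± 0.09, 0.0443). In the same 30 libraries without the block, Lss (-0.03 ± 0.07, adjusted p = 0.725) and Srebf2 (-0.08 ± 0.04, 0.120) were not called either. Srebf2 also lost its call with DESeq2, with median ratio factors, with a mean CPM of 5 or more, without mouse number 16 and in 8 of the 19 fits that left out 1 CeA library.

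**Figure D5:**
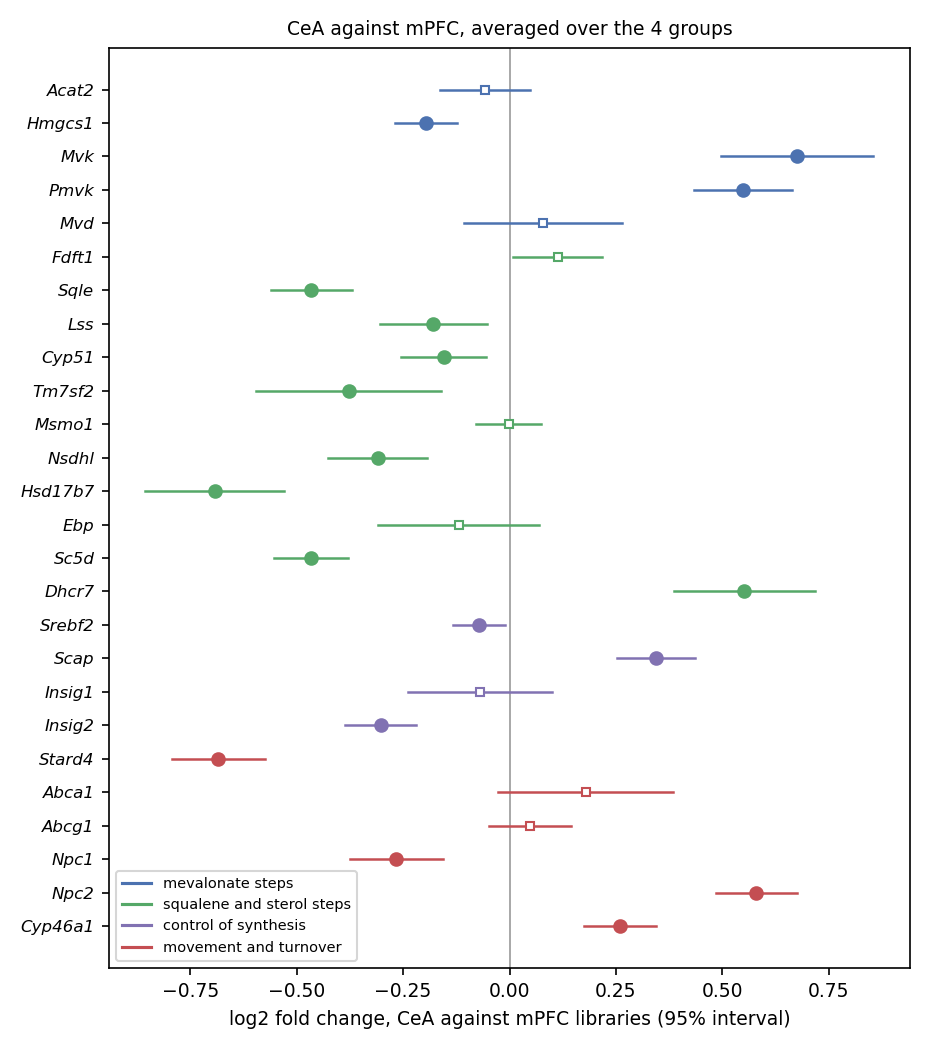
Log2 fold change of CeA against mPFC libraries, averaged over the 4 groups, for the 26 tested genes; lines are 95% intervals, colours mark the 4 roles, and filled circles mark called genes. Mvk, Pmvk, Dhcr7 and Npc2 lie at 0.55 to 0.68 on the right, and Stard4 and Hsd17b7 at -0.68 and -0.69 on the left.

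Cell type markers differed between the regions in the same comparison. Of 18 oligodendrocyte markers 16 were higher in CeA, with a median of 0.74, and of 12 striatal neuron markers 11 were higher, with a median of 1.33. The summed oligodendrocyte level ran from 2779 to 5301 CPM in CeA and from 1582 to 2814 CPM in mPFC, and no marker of the list was at 0. Astrocyte markers were divided, with 4 of 16 higher and 5 lower, and their summed level ran from 4122 to 5094 CPM in CeA and from 3708 to 4454 CPM in mPFC. The summed excitatory neuron level ran from 1577 to 2452 against 1829 to 2776 CPM. For the endothelial list it ran from 205.7 to 271.9 against 242.5 to 364.8 CPM. Among the other pathway genes 23 of 56 were higher in CeA and 17 lower. Of all genes 33.5% were higher and 34.9% lower, which is also the background for the marker counts. Fads2, a fatty acid desaturase, was higher by 3.75 ± 0.08, and Clu and Apoe, which carry lipid between cells, by 0.91 ± 0.03 and 0.92 ± 0.03. The part of cell type content in the regional values was not tested.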

How the data were processed

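Bulk RNA-seq was read as counts in 53 libraries of mouse CeA and mPFC. The authors deposited raw read counts per Ensembl gene, 1 table per library. The submitters' processing notes list Bowtie2 (2.3.4.3), FastQC (0.11.8), R (3.5.1), HTSeq (0.11.0) and DESeq2 (1.10.1) with the build mm10 (GRCm38.p6), without their roles. The labels do not state the strand used in counting, and reads shared between gene copies or overlapping genes can lower or misplace counts. Lines that name no gene and spike-in identifiers were left out of library sizes and tests, and 71.6% to 75.5% of counted reads per library fell in genes. Genes passed edgeR's filter (minimum count 10, minimum total 15). Each region was fitted with its 4 groups by edgeR 4.0.16 (TMM, robust quasi-likelihood test, two-sided, R 4.3.3), and 1 fit of all 53 libraries over shared identifiers gave the regional comparison. P-values were adjusted by Benjamini-Hochberg over all genes tested, and called means an adjusted p under 0.05. Fold changes carry SE and levels SD. The fits were checked on simulated counts. Correlations used 100000 permutations.

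Alternatives were DESeq2 1.42.0, median ratio factors, no count filter, a mean CPM of 5 or more, leaving out number 16, the spike-in libraries or each library in turn, and a block for mouse number in the regional comparison. The protocol takes both regions from each brain, so equal numbers were taken as the same mouse, although the labels do not say so, and the correlation of same-numbered libraries ran from -0.05 to 0.10 over 15 pairs.

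Named members are, within a region, those called or otherwise the 3 with the smallest p, and between regions up to 6 called each way with the largest fold change, the rest being given by level. Hmgcs1, Idi1, Sqle, Insig1, Stard4, Abca1 and Abcg1 are given by library for diet, and other pathway genes are named when called, up to 3 per comparison by smallest p. Further members are given by role. The members, lists and tests were chosen with earlier results of these data known. Some results for other pathway genes are not reported here.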

Additional observations from a re-analysis of the deposited data

Results flagged for a closer look

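Among 216 sets of a member's values in 1 group, 10 (4.63%) held a library far from the others by Dixon's test, and chance gives about 1 in 20. None of these values was given an explanation.

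In CeA of control dependent mice, Mvk was 11.8 CPM in library 9 against 17.0 to 18.5 in the others, Lss was 40.7 CPM in library 2 against 23.1 to 26.8, and Srebf2 was 128.6 CPM in library 2 against 142.8 to 146.1. In CeA of control non-dependent mice, Mvd was 29.4 CPM in library 17 against 14.4 to 17.1, and Hsd17b7 was 13.4 CPM in library 20 against 17.1 to 18.9. In CeA of PLX5622 mice, Mvk was 20.3 CPM in dependent library 7 against 15.3 to 16.1, and Cyp46a1 was 124.9 CPM in non-dependent library 46 against 112.7 to 113.3.

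In mPFC, Abca1 was 45.1 CPM in control dependent library 28 against 17.5 to 30.8. Ebp was 25.7 CPM in PLX5622 dependent library 40 against 11.2 to 18.4. Scap was 80.0 CPM in PLX5622 non-dependent library 47 against 60.3 to 68.5.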

How the results depend on the processing

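In the averaged mPFC diet comparison, 1 member was called. DESeq2 called 0, and the fit with no count filter called 2 (Stard4 and Acat2). Leaving out each library gave 0 to 2, with 0 in the fit without number 16, which is 1 of these fits in mPFC. The median over members was 0.07 to 0.09 in those fits. The cause of these changes was not tested. With the spike-in libraries left out, which leaves 1 PLX5622 dependent and 2 control dependent CeA libraries, Hsd17b7 turned to -0.19 (diet in dependent mice), -0.15 (dependence on PLX5622 chow), -0.18 (interaction) and -0.10 (averaged diet). Insig1 for dependence on PLX5622 chow was 0.63 there and 0.74 to 0.92 when 1 library was left out, never called.

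In the regional comparison with mouse number as replicate block, 17 members were called averaged over groups, and 9, 9, 12 and 8 in the groups in the order control and PLX5622 non-dependent, control and PLX5622 dependent. Of all genes, 63.2% were called averaged and 31.6%, 39.2%, 37.6% and 35.2% in the groups. The same 30 libraries without the block, an alternative chosen after seeing the data, gave 16, against 63.3% of all genes. Leaving out 1 CeA library at a time gave 17 to 19 averaged and 10 to 13, 10 to 13, 12 to 14 and 8 to 12 in the groups. No paired analysis was possible within regions because each number occurs once in a region. In the averaged mPFC diet comparison the SE was 0.11 for Tm7sf2 and Mvk, 0.12 for Abca1 and 0.03 for Srebf2, and what depth contributes to these was not tested.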
